A study of Homo sapiens with 6 samples.

Results

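The HOX genes of clusters A to D were taken as every row of the table whose symbol is HOX, a cluster letter and a number, which gave 39 of 26364 genes. They were measured by RNA-seq in T47D cells, an established human breast cancer line that the labels give as luminal A epithelium. One group received a control siRNA (siNC) and the other an siRNA against ELF5 (siELF5), an ETS-family transcription factor of the luminal lineage. RNA was taken 48 h after transfection, with 3 libraries per group, and no untransfected cells were analysed here. Each group received 1 siRNA. By their labels these are different catalogue products, so product and target cannot be told apart in any fold change. Whether the libraries of a group came from separate cultures is not in the labels, so the p-values cover the spread between libraries alone, and that spread may be technical. For the HOX genes the comparison asks which clusters these cells transcribe and which members differed after ELF5 knockdown.

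HOX genes encode homeodomain transcription factors that set position along the body axis. They lie in clusters on separate chromosomes and are numbered by their place in the cluster, low numbers being the anterior and high numbers the posterior genes. Cells keep a pattern of active and silent HOX genes from their place of origin, held by Polycomb proteins, which silence the clusters, and by trithorax-group methyltransferases, which keep them active. HOX proteins bind DNA together with cofactors of the TALE class, among them MEIS proteins.

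The libraries held 66.8 M to 83.7 M reads assigned to genes, and values are normalised read counts, that is, reads divided by a size factor per library. ELF5 was at 13225, 13148 and 12910.2 in the siNC libraries and at 3678, 3725 and 3638 in the siELF5 libraries, which is 28.1% of the siNC mean. In every library genes with exactly 2 reads outnumbered genes with 1 read, by 2.61 to 3.24 times, so a read is not shown to be an independent fragment and low counts may carry more error than their number gives. The luminal markers KRT8, KRT18, KRT19, EPCAM, CDH1, ESR1, PGR, GATA3, FOXA1 and SPDEF had means of 9806 to 219676. Their sum ran from 738948 to 788456 in siNC and from 688634 to 711902 in siELF5, while the sum of 5 basal markers ran from 251 to 282 and from 289 to 325. The luminal sum does not stand for each of its members. By the limma test given below, 5 of the 10 were higher and 2 lower, with a median log2 fold change of 0.10. Over all genes tested 23.8% were higher and 23.3% lower. After the GC correction given below, 4 of the 10 were higher and 4 lower, with a median of 0.02. The sum of 5 fibroblast markers, nearly all COL1A1, ran from 4043 to 5205 and from 3237 to 3777, that of 4 endothelial markers from 30.4 to 39.7 and from 12.3 to 14.5, and that of 4 immune markers from 16.1 to 28.6 and from 14.5 to 31.8. Between the groups these sums overlapped for the immune markers alone. No marker was at 0 in all 6 libraries, the means of PTPRC (immune) and PECAM1 (endothelial) being 0.813 and 0.664. The part of these shifts in the HOX results was not tested. In RNA from whole cultures, fewer cells that express a gene and less RNA per cell cannot be told apart.

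T47D cells transcribed the HOXC and HOXB clusters, hardly the HOXA cluster, and the HOXD cluster at the limit of detection. A mean of at least 10 over the 6 libraries was reached by all 9 HOXC genes (chromosome 12), by 7 of 10 HOXB genes (chromosome 17), by 5 of 11 HOXA genes (chromosome 7) and by 0 of 9 HOXD genes (chromosome 2). A mean of at least 1000 was reached by 4 HOXC and 2 HOXB genes. Per kilobase of transcript, HOXC genes held 73.1% of the summed HOX level, HOXB genes 25.0%, HOXA genes 1.81% and HOXD genes 0.122%.

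**Figure D1:**
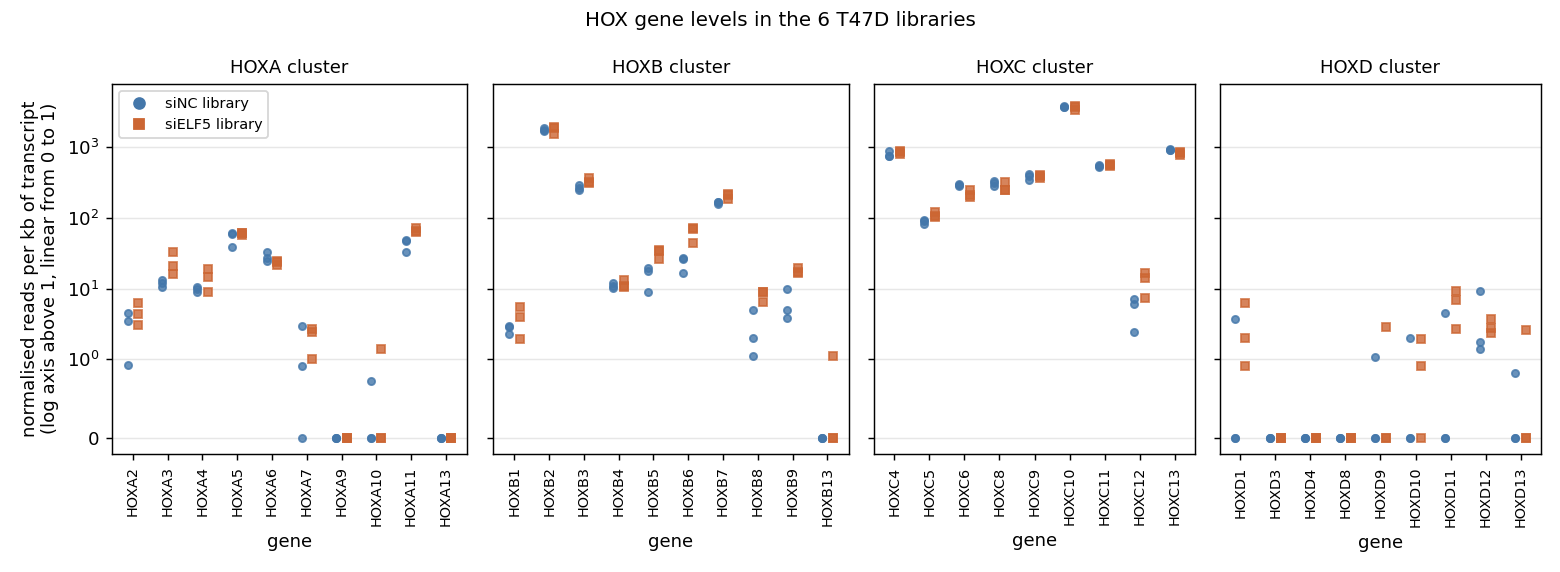
Each panel is 1 HOX cluster, the horizontal axis gives its genes in order of number, and the vertical axis gives the normalised reads per kilobase of transcript in each library (circles siNC, squares siELF5; log scale above 1, linear from 0 to 1). HOXC genes sit highest, with HOXC10 at a mean of 3693, and no HOXD gene has a mean count of 10.

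Summed over its members, the HOXA cluster had 274, 272 and 306 normalised reads in the siNC libraries and 391, 424 and 372 in the siELF5 libraries, so the groups did not overlap. The HOXB sum was 4416, 4152 and 4389 against 5074, 5143 and 4293, with overlapping groups. The HOXC sum was 14909, 14900 and 14793 against 14599, 14573 and 13690, lower in every siELF5 library than in any siNC library. HOXC10 held the most reads of the HOXC sum, but the lower sum was not its alone. From siNC to siELF5 the means went from 2241 to 1997 for HOXC13, 7260 to 7038 for HOXC10, 862 to 650 for HOXC6 and 592 to 520 for HOXC8. Those of HOXC4, HOXC5, HOXC9, HOXC11 and HOXC12 were higher in siELF5. No test was run on the cluster sums. All 39 members together gave 19483 ± 138 in siNC and 19545 ± 1015 in siELF5 (SD, n = 3).

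The 21 members that reached a mean of 10 were ordered by their mean level per kilobase over the 6 libraries. HOXC10, a posterior gene of lumbar and hindlimb development, was first at 3693, followed by HOXB2, a hindbrain gene, at 1809 and by HOXC13, a regulator of hair keratin genes, at 875. HOXC4 at 831 overlapped HOXC13 over the 6 libraries with both groups pooled, while HOXC11 at 555 lay below both. The order of HOXC13 and HOXC4 differed between the groups. HOXC13 was at 925 and HOXC4 at 810 in siNC, and they were at 824 and 852 in siELF5. HOXC9, HOXB3, HOXC8, HOXC6 and HOXB7 followed, from 390 down to 185, each overlapping its neighbour. Within this run the order differed between the groups: HOXB3 was at 268 in siNC, below HOXC8 at 313 and HOXC6 at 293, and at 338 in siELF5, above HOXC8 at 275 and HOXC6 at 221. HOXC5 stood apart at 101. The other 10, from HOXA5 at 56.7 to HOXC12 at 9.07, formed a run in which every neighbour overlapped. In the HOXC cluster, posterior HOXC10, HOXC11 and HOXC13 were thus abundant, and HOXC12, which lies between HOXC11 and HOXC13, was the lowest of the 21 by this mean. In siELF5 alone HOXB4 was lower, at 11.6 against 12.9 for HOXC12.

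Of the 18 members under a mean of 10, 5 were at 0 in all 6 libraries: HOXA9, HOXA13, HOXD3, HOXD4 and HOXD8. A count of 0 allows up to 3 reads per library if reads are independent, which they are not shown to be. These 5 were not detected at this depth. The other HOXA genes under 10 included HOXA2, HOXA7 and HOXA10, with means from 0.911 to 7.63. The HOXB genes under 10 were HOXB1 (6.63), HOXB8 (9.90) and HOXB13 (0.654). The other HOXD genes were HOXD1, HOXD9, HOXD10, HOXD11, HOXD12 and HOXD13, with means from 1.24 to 6.05. HOXB8 and HOXA2 at 7.63 lay just outside the minimum of 10, and HOXA4 at 20.9 and HOXA6 at 25.8 just inside it. The HOXD sum was 9.20, 11.1 and 18.2 in siNC and 27.2, 29.4 and 19.5 in siELF5.

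After ELF5 knockdown 5 HOXB genes, 2 HOXA genes and HOXC12 were higher and HOXC6 and HOXC13 were lower. The siELF5 means of the abundant members HOXC10, HOXB2 and HOXC11 were 97.0%, 100.4% and 102% of their siNC means. The test was limma on log2(value + 1), with Benjamini-Hochberg adjustment over all 16032 genes that reached a mean of 10 and a threshold of 0.05. Of the 21 HOX genes tested, 8 passed as higher and 2 as lower. The share called was 47.6%, against 47.1% of all genes tested, so the number of calls was that of the background. By direction, 38.1% of HOX genes were higher against 23.8% of all genes, and 9.52% were lower against 23.3%. The median log2 fold change of the 21 was 0.20, against 0.00 over all genes. By cluster the median was 0.45 for HOXA, 0.34 for HOXB and 0.01 for HOXC. The groups did not overlap for 9 members that were higher and 2 that were lower, which is 11 of 21, where 55.9% of all genes tested had groups that did not overlap.

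On the reads recovered from the values, edgeR called the same 8 and 2 HOX genes (47.3% of all genes), and DESeq2 called 7 and 2 (45.5%), HOXB7 being the 1 not called.

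**Figure D2:**
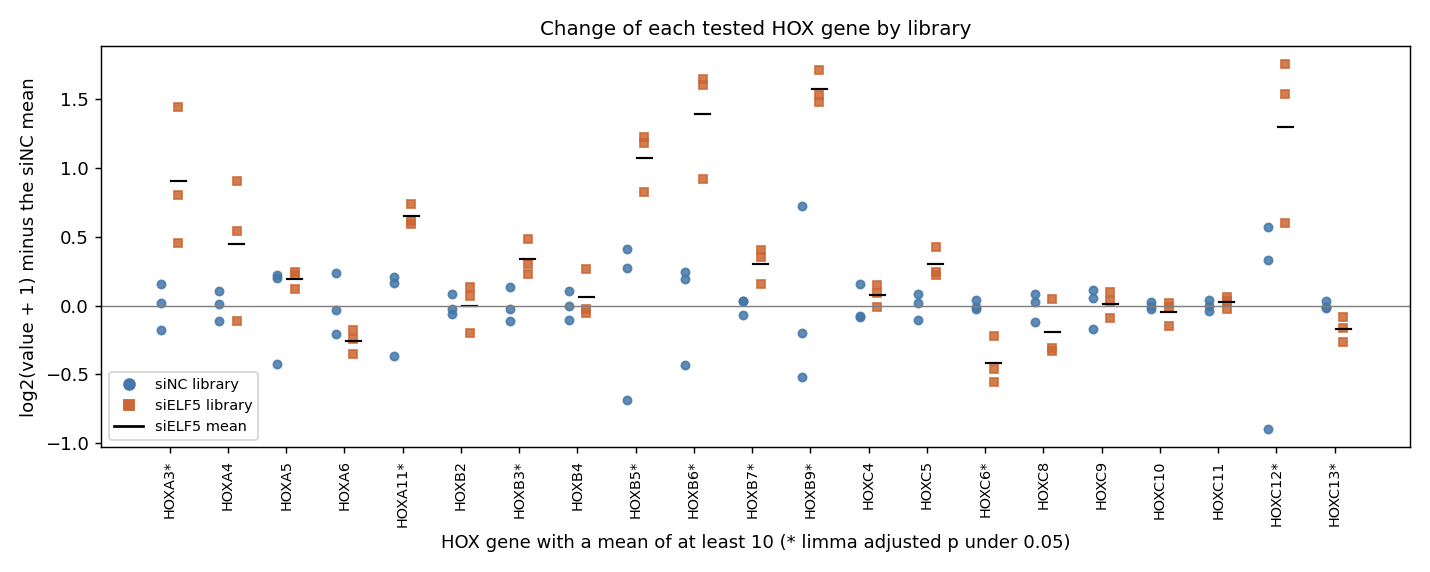
For each of the 21 tested HOX genes (horizontal axis, a star for a limma adjusted p under 0.05), the vertical axis gives log2(value + 1) of each library minus the siNC mean, with siNC libraries as circles, siELF5 libraries as squares and the siELF5 mean as a bar. The siELF5 libraries lie above all siNC libraries for the 8 members that rose and below them for HOXC6 and HOXC13.

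The HOXB cluster held 5 of the 8 members that rose. HOXB6, which patterns the thoracic segments, had 51.7, 33.2 and 53.6 normalised reads in the siNC libraries and 139, 143 and 86.3 in the siELF5 libraries. Every siELF5 library lay above every siNC library, and the log2 fold change was 1.39 (SE 0.255, limma adjusted p 0.000665). HOXB9, a gene of rib identity that also acts in mammary gland development, had 25.3, 12.9 and 10.1 against 43.5, 45.1 and 51.4. The groups did not overlap, with siNC replicate 1 the highest control, and the change was 1.57 (SE 0.354, limma adjusted p 0.00277). HOXB5 had 36.8, 18.4 and 40.5 against 54.3, 69.7 and 71.9 and a change of 1.07 (SE 0.305, limma adjusted p 0.0113). Its siNC replicate 2 was lower than the other controls, and the groups did not overlap. HOXB3, a hindbrain gene and per kilobase the highest of these 5, had 1037, 1106 and 1235 against 1382, 1567 and 1315. It rose by less, 0.34 (SE 0.0796, limma adjusted p 0.00386). HOXB7, which has been reported as overexpressed in breast cancers, had 216, 232 and 232 against 299.8, 290.5 and 253, and changed by 0.30 (SE 0.114, limma adjusted p 0.0432). Of the called members HOXB7 was the nearest to the threshold: without siNC replicate 1, 2 or 3 its adjusted p in limma was 0.11, 0.0793 and 0.063, and without siELF5 replicate 1 or 2 it was 0.149 and 0.122.

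The other tested HOXB genes did not pass. HOXB2, the most abundant member of its cluster, had 2989, 2699 and 2772 against 3089.9, 2958 and 2448, and the groups overlapped. Its log2 fold change was 0.00 with a 95% interval of -0.16 to 0.16. HOXB4, known from blood stem cells, ran from 38.5 to 50.04 over the 6 libraries, and its change was 0.06 with an interval of -0.46 to 0.58. HOXB8 lay just under the minimum level, at 8, 4 and 2 reads in siNC and 18, 12 and 16 reads in siELF5, and its groups did not overlap. With no minimum it passed limma at a log2 fold change of 1.58 (adjusted p 0.0291), while HOXB7 then missed the threshold at 0.0689. HOXB6 and HOXB3 share exon sequence on the same strand, and HOXB6 also overlaps the antisense RNA HOXB-AS3. In all, 33.0% of HOXB6 exon bases and 13.2% of HOXB3 exon bases are shared with another gene in GENCODE 29, against 0% for HOXB7, HOXB8 and HOXB9. The library kit does not mark strand, and how reads on shared bases were counted is not stated in these sources, so the counts of such overlapping genes are uncertain.

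In the HOXA cluster 2 of 5 tested members rose. HOXA11, a gene of the forearm and the uterus, had 113, 75.6 and 109 normalised reads in siNC and 150.3, 164 and 148 in siELF5. The groups did not overlap, and the change was 0.65 (SE 0.178, limma adjusted p 0.00922). HOXA3, a gene of the neck glands, had 44.8, 40.6 and 35.4 against 70.6, 111 and 55.5 and a change of 0.90 (SE 0.267, limma adjusted p 0.0142). Here siELF5 replicate 2 was the highest, and without it the change was 0.63 (limma adjusted p 0.0846). Over the 6 libraries HOXA4 ran from 15.7 to 32.9 normalised reads, HOXA5 from 64.4 to 103 and HOXA6 from 21.7 to 33.2, each with overlapping groups. These 3 did not pass: HOXA4 was at 0.45 (95% interval -0.34 to 1.23), HOXA5, a gene of lung and mammary development, at 0.20 (-0.24 to 0.63) and HOXA6 at -0.26 (-0.90 to 0.39). HOXA11 shares 31.1% of its exon bases with HOXA11-AS on the opposite strand, HOXA3 17.9%, HOXA4 47.3% and HOXA6 40.1% with neighbours, and HOXA5 none. The row of HOXA11-AS had 8.05, 11.1 and 14.2 against 13.6, 16.7 and 23.6 and did not pass (0.65, limma adjusted p 0.224).

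The promoter window of HOXA11 is shown because it is a member that rose and has 1 entry in the promoter table (RefSeq, GRCh38.p14, chr7:27185183-27185482, minus strand, 250 bases before to 50 after the start). All of it is in lower case, since the motif given below was not found in it, and its GC content is 51.3%.
HOXA11: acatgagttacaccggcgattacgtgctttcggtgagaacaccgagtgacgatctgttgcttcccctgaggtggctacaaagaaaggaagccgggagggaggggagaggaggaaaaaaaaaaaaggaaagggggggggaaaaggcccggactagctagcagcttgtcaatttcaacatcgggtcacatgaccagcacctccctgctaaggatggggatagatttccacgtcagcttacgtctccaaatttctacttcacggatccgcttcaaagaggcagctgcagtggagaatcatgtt
The motif searched was CGGAAG on both strands (reverse complement CTTCCG), a narrow form of the sites that ETS factors bind. Other forms of such sites were not searched. Of 27 HOX promoter entries in the table, several of them for 1 gene, 2 held it (7.41%), against 19.5% of all 35116 promoters. Those were 1 window of HOXA10 and the window of HOXD4, which were near or at 0 reads here. The table has entries for HOXA3, HOXA4, HOXA6, HOXA11, HOXC4 and HOXC5 among the tested members. A match is no measured binding, and a missing match says nothing of ELF5.

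In the HOXC cluster 1 of 9 members rose and 2 fell. HOXC6, a gene of thoracic and limb patterning, had 845, 884 and 856 in siNC and 586, 625 and 738 in siELF5. Every siELF5 library was lower than every siNC library, siELF5 replicate 3 by the least, and the change was -0.41 (SE 0.0869, limma adjusted p 0.00175). HOXC13 had 2223, 2291 and 2210.4 against 2120.0, 2003 and 1869, a small shift between groups that did not overlap, of -0.17 (SE 0.0538, limma adjusted p 0.0211). Without siNC replicate 2, siELF5 replicate 2 or siELF5 replicate 3 its adjusted p in limma was 0.0878, 0.0511 and 0.0724. Its neighbour HOXC12 went the other way, from 24.1, 20.3 and 8.10 to 56.1, 48.1 and 24.6. The highest siNC library and the lowest siELF5 library were nearly equal. The change of HOXC12 was 1.29 (SE 0.434, limma adjusted p 0.0263), on counts as low as 8 reads in siNC replicate 3. Without siNC replicate 3, siELF5 replicate 1 or siELF5 replicate 2 the change was 0.85, 1.07 and 1.18, with adjusted p-values in limma of 0.0833, 0.119 and 0.0957.

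The HOXC genes that did not pass included the most abundant HOX gene. HOXC10 had 7395, 7251 and 7133 in siNC and 7355, 7203 and 6557 in siELF5, and its log2 fold change was -0.05 with a 95% interval of -0.14 to 0.05. Over the 6 libraries HOXC11 ran from 1749 to 1878, HOXC9 from 522 to 635, HOXC8 from 471 to 627 and HOXC4 from 1272 to 1498, each with overlapping groups. HOXC11 was at 0.02 (-0.09 to 0.13), HOXC9 at 0.01 (-0.18 to 0.21) and HOXC8, a thoracic gene, at -0.19 (-0.43 to 0.04). Without siELF5 replicate 3 HOXC8 passed, at -0.32 (limma adjusted p 0.0165). HOXC5 had 164, 172 and 151 against 193, 218 and 190.0: the groups did not overlap, and its change of 0.30 (SE 0.13, limma adjusted p 0.0761) missed the threshold. HOXC4 was at 0.08 (-0.08 to 0.23).

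HOXC4, HOXC5 and HOXC6 can be transcribed from a shared start, and their rows are not separate in the annotation. HOXC5 shares 43.4% of its exon bases with other genes, HOXC4 17.8% and HOXC6 15.7%. The promoter table gives HOXC4 and HOXC5 the same window (RefSeq, GRCh38.p14, chr12:54016638-54016937, plus strand), which is shown because it is the start that those rows have in common. The motif CGGAAG was not found in it, so all letters are in lower case.
HOXC4 and HOXC5: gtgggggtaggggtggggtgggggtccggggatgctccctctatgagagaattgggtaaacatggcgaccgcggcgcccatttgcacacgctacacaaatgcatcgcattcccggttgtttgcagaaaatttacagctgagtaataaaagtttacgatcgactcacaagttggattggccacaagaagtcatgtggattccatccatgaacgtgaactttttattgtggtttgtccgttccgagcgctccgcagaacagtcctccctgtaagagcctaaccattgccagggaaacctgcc
HOXC4 and HOXC5 differed from HOXC6 in the sign of their fold change, and their counts are uncertain where reads fall on shared exons.

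The members that rose were mostly low in read count. Their median mean was 72.1 normalised reads, and 5 of the 8 were under 100. Among the 9 tested HOX genes with a mean of 10 to under 100, 5 were higher and 0 lower by limma. Of all 3181 genes at that level 14.7% were higher and 5.28% lower. Also 0 of the 9 were lower at an unadjusted p under 0.05, for which no share of all genes is given. Among the 6 with a mean of 100 to under 1000, 2 were higher and 1 lower, where 28.5% of all genes at that level were higher and 14.2% lower. Among the 6 with a mean of 1000 or more, HOXB3 was higher and HOXC13 lower, where 25.1% of all genes were higher and 33.2% lower. The members that rose were spread along the clusters, from number 3 (HOXA3 and HOXB3) to number 12 (HOXC12). Members of 1 number, which are paralogues, differed in sign for number 6, with HOXB6 at 1.39, HOXA6 at -0.26 and HOXC6 at -0.41. For the other numbers with several tested members they had the same sign, but sizes differed. HOXB9 at 1.57 and HOXA11 at 0.65 were called higher, while HOXC9 at 0.01 and HOXC11 at 0.02 did not pass. HOXA3 at 0.90 and HOXB3 at 0.34 were both called higher. HOXA4, HOXB4 and HOXC4 were at 0.45, 0.06 and 0.08, none of them called. HOXA5, HOXB5 and HOXC5 were at 0.20, 1.07 and 0.30, with HOXB5 alone called. These differences between paralogues were not tested. Standard errors of the 21 ran from 0.0435 for HOXC10 to 0.434 for HOXC12.

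GC content moved with the siRNA groups in the whole data set, so each HOX change was set against it. The GC score of a library, its median deviation in the tenth of genes richest in GC minus that in the fifth class of 10, was -0.393, -0.218 and -0.0703 in the siNC libraries and 0.221, 0.274 and 0.221 in the siELF5 libraries. The groups did not overlap in it. In the class richest in GC (61.7% to 76.8%) the median log2 fold change of all genes was 0.42 and 62.1% were higher. The 21 HOX transcripts had a GC content of 49.4% to 60.1%, with a median of 55.1%, and none was in that class. HOXC12 at 58.7% and HOXA6 at 60.1% were in the next class, where the median of all genes was 0.11. The class from 55.02% to 58.3% had a median of 0.01, and the HOX genes in it lay on both sides of that value. HOXB9, HOXB6, HOXA3 and HOXA11 were at 0.65 to 1.57, HOXA4 at 0.45, HOXC5 at 0.30, HOXC9 at 0.01, HOXB2 at 0.00 and HOXC13 at -0.17.

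**Figure D3:**
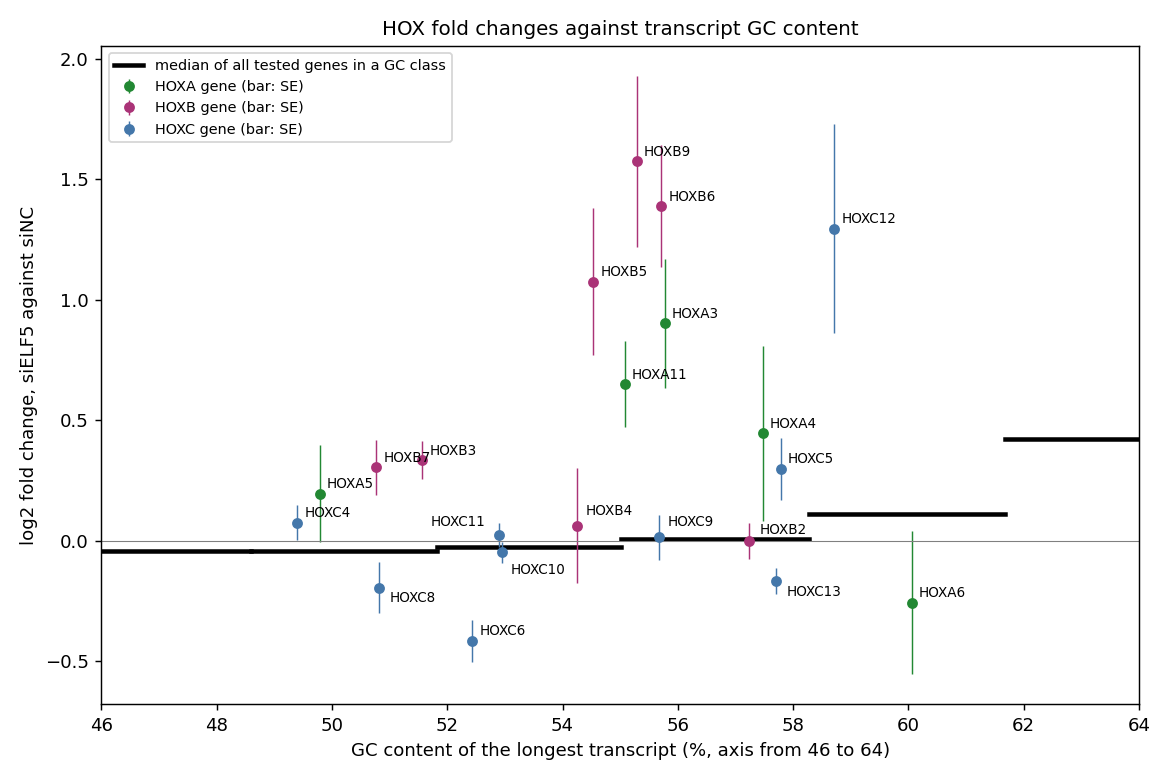
The horizontal axis is the GC content of the longest transcript in percent and the vertical axis the log2 fold change of siELF5 against siNC, with 1 point and its SE for each tested HOX gene, coloured by cluster, and black bars for the median of all tested genes in each GC class. The HOX genes that rose by over 0.6 lie above the bar of their own class, which runs from -0.03 to 0.11, and the other tested members lie on both sides of their bars.

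A GC correction, which subtracts from each library a smooth curve of deviation on GC content, moved the HOX log2 fold changes by -0.19 to 0.02. After it limma called 8 HOX genes higher and 2 lower, the same genes as without it, where 48.8% of all genes were called, 20.9% higher and 27.9% lower. The median of the 21 was 0.20, against -0.02 over all genes. HOXB9 was at 1.53, HOXB6 at 1.34 and HOXC6 at -0.42. HOXC13, at 57.7% GC, moved from -0.17 to -0.24 (SE 0.0554, limma adjusted p 0.00167). HOXA6 moved by the most, from -0.26 to -0.44, and did not pass. HOXC5 moved from 0.30 to 0.22.

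With the GC score of the library as a covariate in limma, 1 HOX gene passed as higher and 0 as lower, against 3.24% and 4.03% of all genes (7.27%, or 1166 genes, in all). The 1 that passed was HOXB9 at 3.34 (SE 0.84, limma adjusted p 0.0192), against 1.57 without the covariate. Its siNC values fell over replicates 1 to 3, 25.3, 12.9 and 10.1, while the score of those libraries rose. The estimate of 3.34 compares the groups at a common score, which they did not share, so it is an extrapolation. At an unadjusted p under 0.05 there were 2 higher, HOXB9 and HOXC12 (at 3.18, likewise an extrapolation), and 0 lower. The share of all genes at that unadjusted threshold is not given, so these 2 counts have no background. Since the groups do not overlap in the score, the covariate takes up part of the difference between them, and the median SE of the 10 called HOX genes went from 0.216 to 0.563. HOXC6 kept its value, at -0.42, and HOXB6 was at 1.25, both past the threshold only without the covariate. HOXB3 turned from 0.34 to -0.08. In this fit the siRNA and the GC score of the library cannot be told apart.

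**Figure D4:**
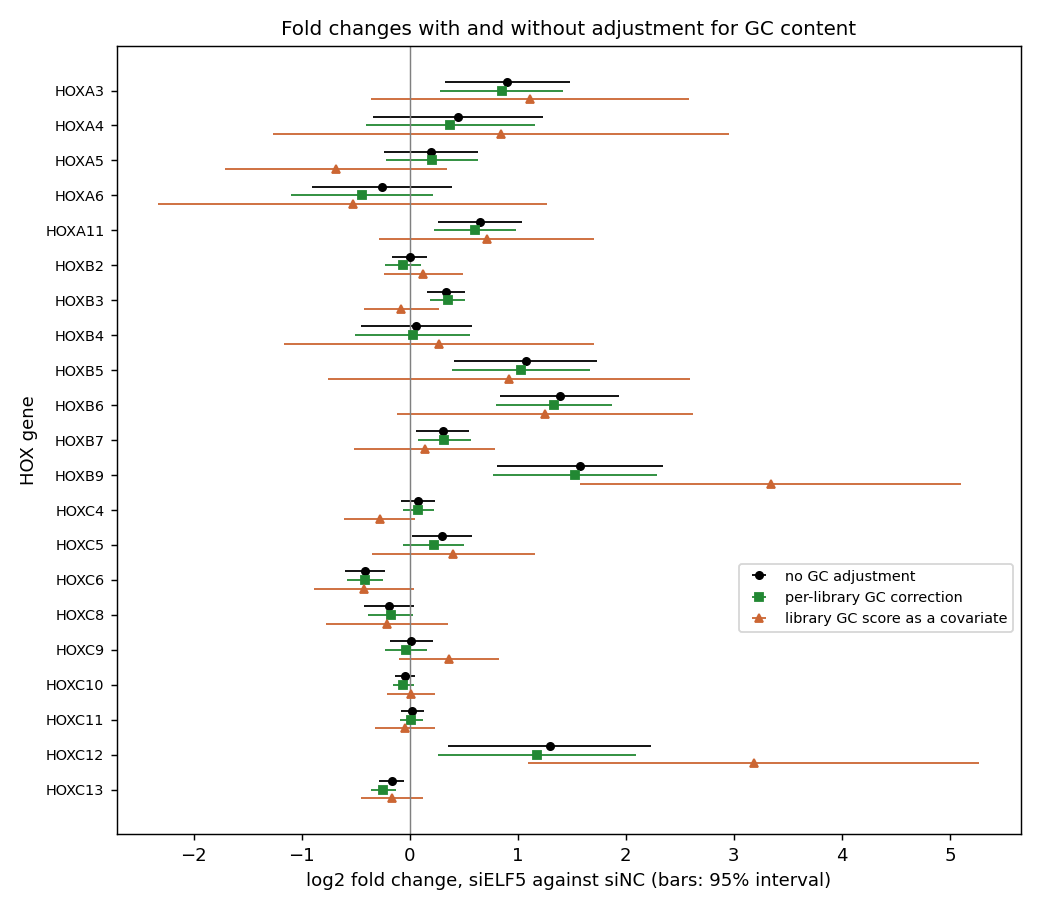
For each tested HOX gene (vertical axis) the horizontal axis gives the log2 fold change of siELF5 against siNC with its 95% interval, without GC adjustment (circles), after the correction per library (squares) and with the GC score as a covariate (triangles). The first and second lie close together for every gene. The third has intervals 2.01 to 2.79 times as wide as the first, and its value of 3.34 for HOXB9 is an extrapolation.

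Other genes tied to HOX function were counted by list. Of 8 tested TALE cofactors 1 was higher and 3 were lower by limma, where 23.8% of all genes tested were higher and 23.3% lower. MEIS2, a cofactor that binds DNA with HOX proteins, had 659, 587 and 592 in siNC and 509.9, 546 and 474 in siELF5. Every siELF5 library was lower than every siNC library, with a change of -0.26 (SE 0.0864, limma adjusted p 0.0234). Its relative MEIS3 had 78.2, 74.7 and 83.0 against 132, 192 and 168, higher in every siELF5 library, with a change of 1.04 (SE 0.174, limma adjusted p 0.000349). Neither passed with the GC score as a covariate (adjusted p in limma 0.875 and 0.347).

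Of 23 noncoding RNAs of the clusters found in the table, 9 were tested. By limma 3 were higher and 0 lower, where 23.8% of all genes were higher and 23.3% lower. Also 0 were lower at an unadjusted p under 0.05, for which no share of all genes is given. After the GC correction 2 were higher, against 20.9% of all genes. HOTAIR, a long noncoding RNA of the HOXC cluster that is known for its ties to Polycomb and to breast cancer, had 1443, 1448 and 1442 against 1781, 1933 and 1866. It rose by 0.36 (SE 0.0518, limma adjusted p 9.75e-05) between groups that did not overlap. HAGLR, which lies in the HOXD cluster, had 41.4, 25.8 and 26.3 against 41.7, 68.7 and 69.8, with siNC replicate 1 just below siELF5 replicate 1, and changed by 0.92 (SE 0.293, limma adjusted p 0.0206). HOXC13-AS, antisense to HOXC13, was at 0.30 (SE 0.115, limma adjusted p 0.0499), and at an adjusted p of 0.0673 after the GC correction. It did not pass in edgeR (adjusted p 0.0507) or DESeq2 (adjusted p 0.0662). HOXC13 shares 7.10% of its exon bases with HOXC13-AS on the opposite strand, so both counts are uncertain there. HOTTIP, the noncoding RNA at the HOXA13 end, was at 0 in all 6 libraries, as HOXA13 was. With the GC score as a covariate none of HOTAIR, HAGLR and HOXC13-AS passed (limma adjusted p 0.162, 0.198 and 0.794).

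The next 4 lists are counted against 23.8% of all genes higher and 23.3% lower by limma, and 20.9% and 27.9% after the GC correction. Of 16 tested genes that flank the clusters, 5 were higher and 2 lower (5 and 5 after the correction), and their median was -0.00. SKAP2, next to the HOXA cluster, rose by 1.18 (SE 0.0529, limma adjusted p 5.02e-09) and stayed at 0.92 with the GC score as a covariate (limma adjusted p 2.77e-05). JAZF1, also near HOXA, changed by 0.39 and CBX5, near HOXC, by 0.16, and with the GC score neither passed (adjusted p in limma 0.276 and 0.0897). Among 28 Polycomb genes 9 were higher and 6 lower (11 and 9 after the GC correction), with JARID2 at 0.53, CBX6 at 0.41 and RBBP7 at 0.33. With the GC score 2 of the 28 passed, JARID2 and RBBP7, both higher. Among 13 trithorax and related genes 1 was higher and 5 lower (1 and 7 after the correction), with ASH2L at -0.26, KMT2C at -0.35 and KDM6B at -0.38. With the GC score 1 of the 13 passed, KDM6B, as lower. Among 6 tested retinoid and CDX genes, inputs that set HOX activity in the embryo, 1 was higher and 2 lower (1 and 4 after the correction), with CYP26B1 at 1.00, RARG at -0.17 and RXRB at -0.13. With the GC score 1 of the 6 passed, the retinoic acid receptor gene RARA, named here after its values were seen. It was at -0.13 without adjustment, -0.50 after the GC correction and -0.54 with the score (adjusted p in limma 0.0801, 3.77e-09 and 0.000666).

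**Figure D5:**
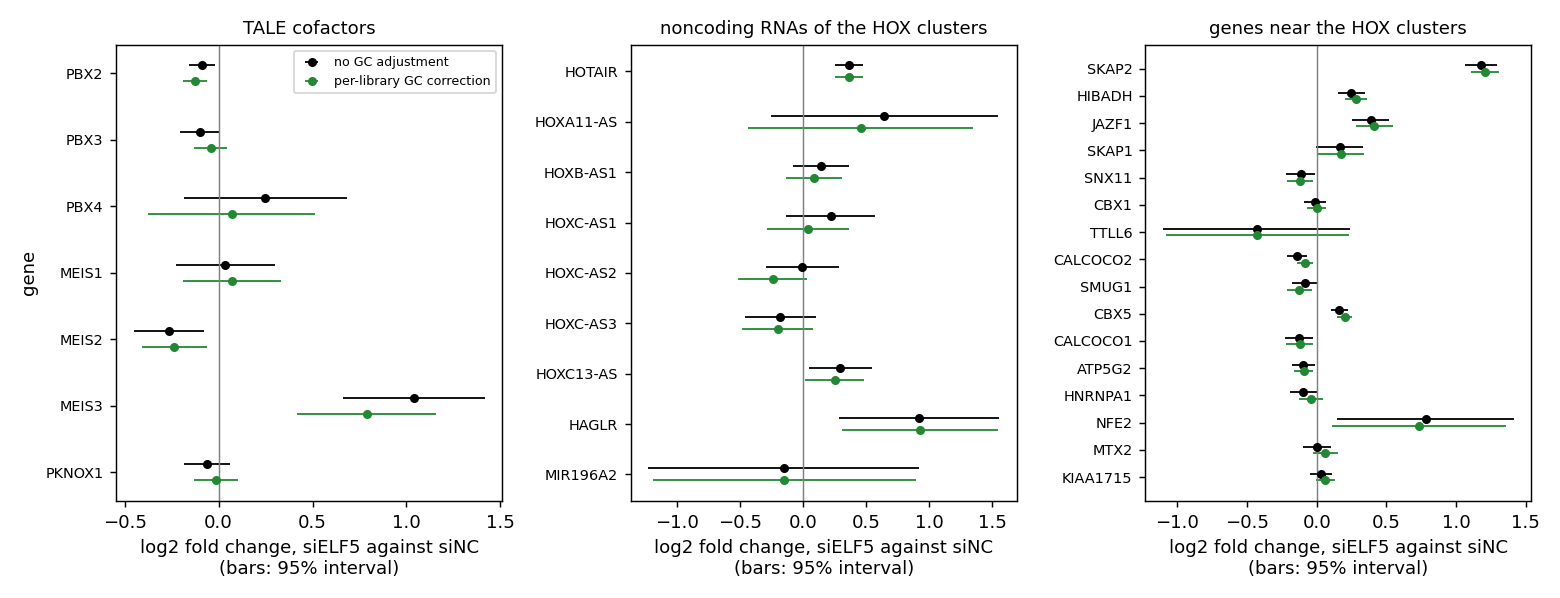
The horizontal axes give the log2 fold change of siELF5 against siNC with its 95% interval for TALE cofactors, noncoding RNAs of the HOX clusters and genes near the clusters (vertical axes), without (black) and with (green) the GC correction. SKAP2 at 1.18 stands far from 0 with a narrow interval, and MEIS2 at -0.26 and MEIS3 at 1.04 lie on opposite sides of 0.

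The clusters also hold miRNA genes whose products act on HOX transcripts. Their mature sequences are shown because their seeds (bases 2 to 8, in capitals) define the sites searched for in the 3′ UTRs (RefSeq, GRCh38.p14). miR-196a-5p comes from MIR196A1 (chr17:48632532-48632553, minus strand) and MIR196A2 (chr12:53991762-53991783, plus strand). miR-196b-5p comes from MIR196B (chr7:27169528-27169549, minus strand) and miR-10a-5p from MIR10A (chr17:48579904-48579926, minus strand).
miR-196a-5p: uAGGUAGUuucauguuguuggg
miR-196b-5p: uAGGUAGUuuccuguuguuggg
miR-10a-5p: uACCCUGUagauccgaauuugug
Both miR-196 forms share 1 seed. Its site, ACTACCT, was in the 3′ UTR of 8 of 39 HOX genes (20.5%), with 13 sites in all, against 7.37% of 19484 genes, not matched for UTR length. Those 8 were HOXA5, HOXA7, HOXA9, HOXB1, HOXB6, HOXB7, HOXB13 and HOXC8. Of the 4 tested among them, HOXB6 and HOXB7 were higher and HOXA5 and HOXC8 did not pass, with a median of 0.25. Of the 17 tested HOX genes without the site, 6 were higher and 2 lower, with a median of 0.08. Over all genes tested 23.8% were higher and 23.3% lower by limma. HOXB7 lost its call in 10 of 20 alternative settings, and the difference between members with and without the site was not tested. The miR-10 site, ACAGGGT, was found in 2 of the 21 tested members, HOXA3 and HOXB3. That share is not above the 12.8% of all genes.

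HOXB8 carries a longer match, beginning at base 411 of its 3′ UTR on chromosome 17 (GENCODE 29). It is shown with the full complement of miR-196a-5p, and the capital marks the 1 base at which HOXB8 differs.
HOXB8 site: cccaacaacatgaaactGccta
full complement: cccaacaacatgaaactaccta
Of 19484 genes searched, HOXB8 was the only 1 with at most 4 mismatches to this complement. The row of MIR196A2, a short precursor, had 19.5, 11.1 and 13.2 normalised reads in siNC and 21.7, 5.89 and 15.4 in siELF5, and did not pass at -0.15 (SE 0.495, limma adjusted p 0.83). MIR196A1 and MIR196B had means of 0.171 and 0. Mature miRNAs were not measured, and a site in a sequence is a description only.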

How the data were processed

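T47D total RNA was sequenced in 6 libraries (TruSeq RNA kit v2, per the labels). The submitters' processing notes name the build hg19, STAR 2.6, Subread, featureCounts 1.6.3 and DESeq2 1.22.1, with no settings. Each library's deposited column holds signal values, that is, gene counts over a size factor. All of them were whole multiples of the value of 1 read (100%, tolerance 1e-06), so reads were recovered. The table also holds the authors' log2 fold change, test score and p-value columns, per the file headers, which entered no test.

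HOX genes were tested in a limma 3.58.1 fit (R 4.3.3, intensity trend, two-sided, no covariates) of log2(value + 1) across all genes whose mean reached 10. Fold changes are on that scale, which can understate the change of low genes. Recovered reads gave 7578 called genes in edgeR 4.0.16 and 7292 in DESeq2 1.42.0. Replicates of 1 group were no copies of each other (chi-square per degree of freedom 4.38 to 12.0). GC content came from GENCODE 29 transcripts, found for 15458 tested genes (96.4%). The correction fitted a loess curve of span 0.3 in each library. Sites and promoters were searched on GRCh38. Coordinates of the counted genes (hg19) are not printed. The fit was also run on simulated counts, drawn independently and with the same spread setting for every gene. Those conditions differ from these data, so that run is no check of the calls given here. Some genes of these lists are not reported here or drawn in the figures. All tested HOX genes are named, with up to 3 called genes by adjusted p from each other list. Members and lists were chosen with earlier results of these data known. A total of 20 alternatives was run.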

Additional observations from a re-analysis of the deposited data

How the results depend on the processing

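Leaving out 1 library at a time gave 5 to 8 HOX genes higher, 1 to 2 lower, a median log2 fold change of 0.12 to 0.30 and 6164 to 7312 genes called in all. Without siELF5 replicate 2 the counts were 5 higher and 1 lower, without siNC replicate 2 there was 1 lower with a median of 0.30, and without siNC replicate 1 the median was 0.12. A minimum mean of 50 left 15 HOX genes, 5 of them higher and 2 lower, with a median of 0.076 and 7305 genes called in all. Quantile scaling gave 6 higher, 3 lower (HOXC8 added) and a median of 0.033, where 7443 of all 16032 genes were called. In edgeR the median was 0.16. Limma without its trend gave 8 higher and 1 lower, where 6355 of the 16032 were called. The GC score as a covariate gave 1 higher, 0 lower, a median of 0.14 and 1166 genes in all. At an unadjusted p under 0.05 in limma 2 HOX genes were higher and 0 lower, with no share of all genes given for that threshold. The cause of these shifts was not tested.

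Of the 10 called HOX genes HOXB9 passed in all 19 alternatives that held it, though its value with the GC score, 3.34, was an extrapolation. HOXA11, HOXB3, HOXB5, HOXB6 and HOXC6 were lost with the GC score alone, HOXA3 also without siELF5 replicate 2. HOXC13 was lost in 5, HOXC12 in 6 and HOXB7 in 10, among them DESeq2 (adjusted p 0.0651). The authors' deposited table has 7 HOX genes higher and 2 lower, of 7103 genes called in all, HOXB7 being at an adjusted p of 0.0869.

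Signs changed for uncalled HOX genes, most of them near 0, and for 1 called gene, HOXB3. Under quantile scaling HOXB4 was at -0.0876, HOXC9 at -0.0844 and HOXC11 at -0.0135. After the GC correction HOXB2 was at -0.0643 and HOXC9 at -0.0353, and with GC averaged over transcripts HOXB2 was at -0.0874, HOXC9 at -0.0048 and HOXC11 at -0.0152. With the GC score HOXA5 was at -0.69, HOXB3 at -0.0776, HOXC4 at -0.28, HOXC10 at 0.0099 and HOXC11 at -0.0421. With 1 library left out HOXA5 ran from -0.0147 to 0.31, HOXB2 from -0.0662 to 0.10, HOXB4 from -0.0385 to 0.12, HOXC9 from -0.0684 to 0.072 and HOXC10 from -0.0789 to 0.0039.

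Replicate numbers gave no sign of pairing. Same-numbered siNC and siELF5 libraries had correlations of deviations of 0.0146, -0.0345 and -0.056, and different-numbered ones ran from -0.0359 to 0.0713. With 3 libraries per group these values cannot show that no pairing was made. With the replicate block 7 HOX genes were higher (HOXB7 lost) and 2 lower, of 7174 genes called. With the block and the GC correction together it was 8 and 2, of 7635, with HOXB2 at -0.0643 and HOXC9 at -0.0353. Low counts limit HOXB8 and the HOXD genes, which stayed untested at the minimum of 10; with no minimum HOXD11 passed at 2.30 (limma adjusted p 0.0357), with overlapping groups.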
